A study of Mus musculus with 9 samples.

Results

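Glucocorticoid receptor (GR) binding that appeared in mouse granulosa cells 6 h after an ovulatory stimulus is described here for one kind of site, namely distal sites whose chromatin already carried acetylated lysine 27 of histone H3 (H3K27ac) before the stimulus. Peaks of 4 GR lists on chromosomes 1 to 19 and X were merged into 18570 loci wherever they overlapped by at least 1 bp. Of these, 2805 loci (15.1%) had a peak in each of the 6 h libraries and none in the 0 h libraries, and 2547 of them were distal, over 1 kb from every end of a protein-coding gene. Of the distal loci, 924 (36.3%) overlapped an H3K27ac peak of the 0 h library by at least 1 bp, and these 924 of 18570 loci are the acetylated 6 h-only loci. Because the 6 h and 0 h calls and the H3K27ac overlap chose them, those values, and how the loci lie within the mark, are given as a description with no test.

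The study measured binding by chromatin immunoprecipitation and sequencing (ChIP-seq) in wild-type CBA x C57BL/6 F1 mice 21 days old. All mice were primed with equine chorionic gonadotropin (eCG, 5 IU), which drives follicle growth, and 44 h later they either were given 5 IU of human chorionic gonadotropin (hCG), a substitute for the luteinising hormone (LH) surge, and were killed after 6 h (6 h, 2 GR libraries), or were killed at once (0 h, 2 GR libraries and 1 H3K27ac library). Granulosa cells were freed by puncturing the ovaries, and GR was precipitated with antibody sc-8992 and H3K27ac with an antibody from Active Motif. No group was killed 6 h later without hCG, so hCG and elapsed time cannot be told apart, and 4 of the 9 samples, the GR libraries labelled PRWT and PRKO and 2 pooled inputs, were not analysed here. The labels number the replicates but do not say whether each came from its own mice. A p-value over libraries therefore reflects their spread alone, and that spread may be technical.

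GR is a nuclear receptor that moves to the nucleus when it binds cortisol or corticosterone, and it contacts DNA as a dimer on a palindrome of hexamers, on single half-sites or through partners such as AP-1. H3K27ac marks active promoters and enhancers, and in several cell types GR is known to bind mainly where chromatin is already open. After the LH surge, granulosa cells leave follicular growth and begin to luteinise, turning to progesterone synthesis.

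Bases could be read for those loci whose summit (the point of strongest signal, taken from the 6 h library with the better p-value) lay within the 250 bases before an annotated start of any gene, coding or not, in the RefSeq table (build GRCm38.p6, whose coordinates are those of mm10). Of 899 acetylated 6 h-only loci on chromosomes with starts in that table, 28 overlapped such a window and 15 had their summit in it. The 3 stretches below were chosen because they held GR motif letters and had the highest fold enrichments among the stretches that did. Capitals mark the GR half-site AGAACA (or TGTTCT, its other strand) and the palindrome core ACANNNTGT. Each stretch reads 5′ to 3′ on the strand of the gene after which it is named, here the plus strand.
4930554I06Rik: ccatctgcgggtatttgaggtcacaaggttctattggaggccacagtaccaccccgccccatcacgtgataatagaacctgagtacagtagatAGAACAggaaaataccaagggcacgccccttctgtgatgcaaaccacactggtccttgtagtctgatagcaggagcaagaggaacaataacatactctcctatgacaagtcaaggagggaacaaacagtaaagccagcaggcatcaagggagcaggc
Dcaf4: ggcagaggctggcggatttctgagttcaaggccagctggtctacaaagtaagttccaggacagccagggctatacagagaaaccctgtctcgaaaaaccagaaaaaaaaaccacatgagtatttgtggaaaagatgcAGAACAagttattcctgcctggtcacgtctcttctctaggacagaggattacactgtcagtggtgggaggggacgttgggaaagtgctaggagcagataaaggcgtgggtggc
Gm9875: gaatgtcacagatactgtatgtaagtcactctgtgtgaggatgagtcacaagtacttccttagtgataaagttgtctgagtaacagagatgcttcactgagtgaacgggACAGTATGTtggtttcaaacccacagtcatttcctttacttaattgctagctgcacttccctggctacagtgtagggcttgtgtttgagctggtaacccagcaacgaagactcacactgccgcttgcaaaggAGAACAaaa
The stretch of 4930554I06Rik, a long non-coding RNA gene, was chr19:21104460-21104709, and its locus had fold enrichments of 19.7 in the first and 15.9 in the second 6 h library. Its half-site lay 82 bp from the summit, and the locus was wholly covered by H3K27ac. The stretch before an inner start of the coding gene Dcaf4 was chr12:83525799-83526048, with fold enrichments of 12.9 and 17.2 and a half-site 24 bp from the summit. The stretch of Gm9875, another long non-coding RNA gene, was chr2:13558653-13558902, with 10.4 and 11.4. It was the one stretch of the 15 with the palindrome core, ACAGTATGT, which lay 85 bp from the summit. Its half-site lay 216 bp from the summit. AP-1 letters, not in capitals here, lay nearer, at 16 bp.

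AP-1 letters (TGANTCA) stood in 4 of the 15 windows of 250 bases. The next 2 stretches, both at coding genes, are shown because they carry AP-1 letters, in capitals, without a GR half-site.
St6gal1: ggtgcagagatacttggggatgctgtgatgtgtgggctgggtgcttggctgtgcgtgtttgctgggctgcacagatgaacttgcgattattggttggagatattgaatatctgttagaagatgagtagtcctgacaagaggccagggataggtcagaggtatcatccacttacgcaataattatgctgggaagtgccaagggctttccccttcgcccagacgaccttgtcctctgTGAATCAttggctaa
1810058I24Rik: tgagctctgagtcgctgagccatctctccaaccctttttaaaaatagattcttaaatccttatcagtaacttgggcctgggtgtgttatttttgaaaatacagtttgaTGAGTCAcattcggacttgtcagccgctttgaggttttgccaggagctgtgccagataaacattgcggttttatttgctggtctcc
The stretch of St6gal1, a sialyltransferase gene, was chr16:23290220-23290469 on the plus strand, and its locus had fold enrichments of 8.04 and 6.23 with the AP-1 letters 82 bp from the summit. That of 1810058I24Rik was chr6:35256797-35256990 on the plus strand, with 5.30 and 4.96 and the letters 35 bp from the summit. In the 15 windows of acetylated 6 h-only loci the half-site was found in 6 (40%). It was found in 5 of 12 windows (41.7%) at distal 6 h-only loci outside H3K27ac, in 13 of 130 (10%) at distal loci called in all 4 GR libraries, and in 16.1% of all 32851 windows. AP-1 letters were in 26.7%, 25% (3 of 12), 5.38% (7 of 130) and 6.75% of the same sets. The palindrome core was in 1 of 15, 3 of 12, 6 of 130 and 5.84%. Both strands were searched and motifs could overlap. The counts cover all 250 bases of each window, also those outside the GR locus, whereas the stretches shown were cut to the locus. These counts describe a few promoter-like windows and were not tested, and the rest of the loci were not searched.

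The name of the set was checked against the files. Distal held by the rule, but 54 of 899 loci (6.01%) lay within 1 kb of an annotated start that the rule did not use, an inner start of a coding gene or the start of a non-coding gene, against 41 of 1585 (2.59%) of distal 6 h-only loci outside H3K27ac and 475 of 1147 (41.4%) of distal loci in all 4 libraries. Acetylated meant touching an H3K27ac peak. The mark covered 502 loci (54.3%) wholly and 165 (17.9%) by less than 50%. Called only at 6 h meant that no 0 h peak passed the authors' limit. Of the 924 loci, 42 (4.55%) had a 0 h GR peak within 500 bp, so a small part lay at the shoulder of earlier binding. Just inside the distance limit were loci 1010 bp from Tbc1d8 (fold enrichments 6.51 and 6.99), 1025 bp from Cited2, a transcriptional co-regulator (14.3 and 13.4), and 1028 bp from an end of Dcaf5 (7.02 and 7.66). Just outside were loci 994 bp from Ecm1 (9.98 and 10.2), 986 bp from Wbp2 (7.75 and 5.56) and 933 bp from Clic1 (7.11 and 5.27).

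At the limit of the mark, the least covered loci had 1.09% (near Parm1), 1.29% (near Slc25a33) and 2.61% (near Tnks2) of their width inside H3K27ac. Their fold enrichments were 6.70 and 5.03, 25.4 and 20.6, and 17.7 and 19.5. The nearest loci that missed the mark abutted an H3K27ac peak inside Wipi1 (8.96 and 8.85) and near Ywhaq (8.03 and 7.29), or lay 1 bp from one near Pik3cg (7.26 and 6.23). At the authors' p-value limit, loci among the weakest of the 924 lay in Bcl6 and Topbp1, with −log10 p-values of 13.2 and 9.13 and of 11.5 and 9.49 in the 6 h libraries. The least covered loci near Slc25a33 and Tnks2 had higher fold enrichments than all 3 loci that just missed the mark. The least covered locus, near Parm1, had lower ones than all 3. At the distance limit, Cited2 had higher fold enrichments than all 3 loci just under it, while Tbc1d8 and Dcaf5 had lower ones than Ecm1. Against Wbp2 and Clic1 the order of Tbc1d8 and Dcaf5 differed between the libraries. The number of loci depended on the second 6 h library. With it left out, 1819 distal loci overlapping H3K27ac were called at 6 h alone, and with any other library left out 1062 to 1181 were. Fewer lists have to meet the rule when one is left out, so a rise is built into this comparison.

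H3K27ac at 0 h separated the call patterns of distal GR loci. Over all 9834 distal GR loci, 57.2% overlapped the mark. Loci called in both 6 h libraries and no 0 h library did so in 36.3% of cases, loci called in all 4 libraries in 96.2% (1127 of 1172), and loci called in both 0 h libraries and no 6 h library in 90.5% (476 of 526). The 6 h libraries differed from each other in this. Of 1863 distal loci called by the first 6 h library alone 47.8% overlapped H3K27ac, and of 1298 called by the second alone 17.6% did, while loci called by a single 0 h library did so in 73.2% and 77.2% of cases. The first 6 h list was also the longest, with 14748 peaks against 10588 in the second and 10119 and 9728 in the 0 h lists. The part of list length in the share with the mark was not tested. With each list cut to the length of the shortest, 719 loci remained in the class, 37.4% of the distal 6 h-only loci.

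**Figure D1:**
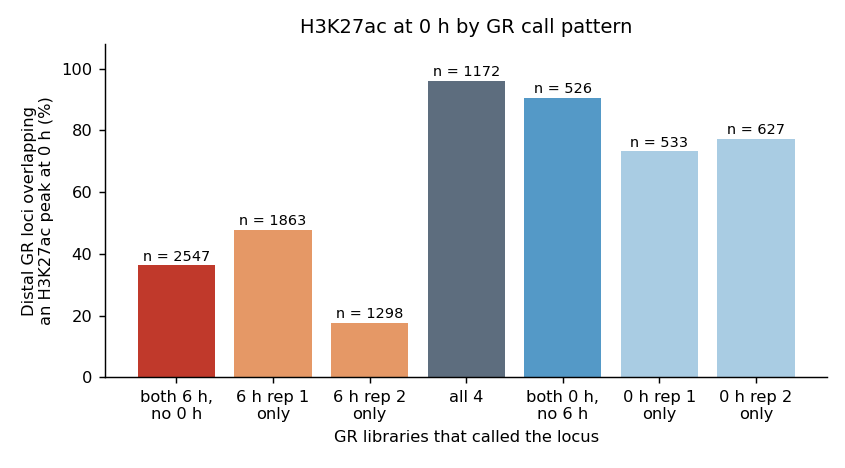
Percent of distal GR loci that overlapped an H3K27ac peak of the 0 h library (y axis), by the GR libraries that called the locus (x axis), with the number of loci above each bar. The bar of loci called in both 6 h libraries stands at 36.3%, between those of the first (47.8%) and the second 6 h library alone (17.6%), and below every bar of loci called at 0 h.

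The share with the mark was lower far from genes. It was 45.0% (166 of 369 distal 6 h-only loci, 95% Wilson interval 40.0 to 50.1) at 1 to 5 kb from the nearest gene end and 24.9% (98 of 393, 20.9 to 29.4) beyond 100 kb. Between these distances it was 35.5% to 38.0% and the intervals overlapped. By chromosome it ran between 26.9% on chromosome 13 and 53.1% on chromosome 14. The acetylated loci sat at a median of 21.8 kb from a gene end, loci outside the mark at 25.9 kb and distal loci in all 4 libraries at 8.28 kb.

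GR enrichment at the acetylated 6 h-only loci, a ratio over the background estimated by the peak caller, ran from 3.43 to 36.5 in the first 6 h library and from 3.49 to 38.8 in the second. Medians were 8.89 and 7.94, with interquartile ranges of 7.15 to 11.7 and 6.30 to 10.9. Distal 6 h-only loci outside H3K27ac had medians of 9.29 and 8.93 in the same libraries. The log2 ratio of the medians, acetylated over not, was −0.06 and −0.17, or −0.12 ± 0.07 (SD, n = 2). Fold enrichment was thus slightly lower at the acetylated loci in both libraries. The median −log10 p-value was 28.8 against 26.8 in the first library and 27.8 against 29.1 in the second, so the libraries differed in its direction. Binding in fewer cells and weaker binding in each cell cannot be told apart in such bulk samples. The share of loci with the mark was highest in the lowest quartile of fold enrichment in each 6 h library, 41.4% and 46.2%, against 33.6% and 30.6% in the highest quartile. By −log10 p-value the lowest and highest quartiles had 33.2% and 38.8% in the first library and 38.8% and 36.3% in the second, so this order turned in the first.

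Strength was shared between the 6 h libraries. Across the 924 loci the log2 fold enrichments had a Pearson correlation of 0.825 and a Spearman correlation of 0.764, a description over loci that share libraries and a detection limit. Summits of the 2 libraries lay a median of 29 bp apart, and 808 pairs (87.4%) lay within 100 bp. In both 6 h libraries, 477 loci (51.6%) had a −log10 p-value above 23.7, the higher of the medians of the whole 0 h lists. Depth is unknown, so values of different lists are set side by side here only as a description. The rule required each locus to pass the authors' limit of about 9 in both 6 h libraries, and 29 loci were under 12 in either. The median width was 419 bp, against 363 bp outside H3K27ac and 642.5 bp for distal loci in all 4 libraries.

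**Figure D2:**
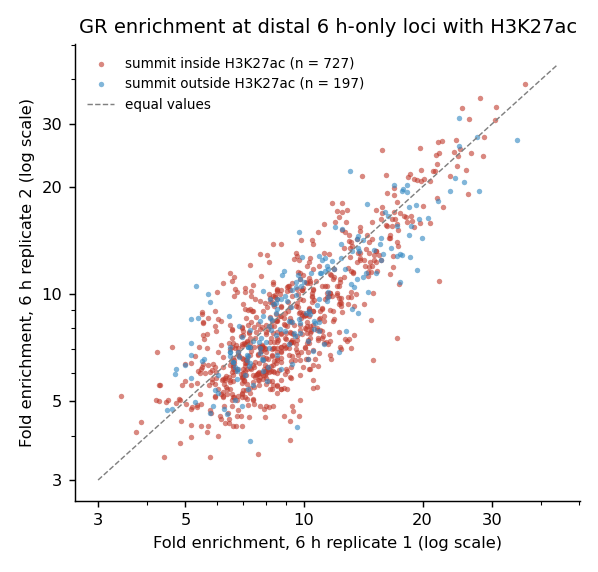
Fold enrichment of the 924 acetylated 6 h-only loci in the first (x axis) and second (y axis) 6 h library, both on log scales, with 727 loci whose summit lay inside an H3K27ac peak in red and 197 whose summit lay outside in blue. Points follow the dashed line of equal values over 3.43 to 38.8, with 607 of 924 loci higher in the first library, and both colours run over nearly the whole range.

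By mean rank of the p-value in the 6 h libraries, the strongest locus lay 3531 bp from Frmd5, a gene of a FERM-domain protein, at chr2:121810618-121811304. Its fold enrichments were 36.5 and 38.8, and H3K27ac covered 76.3% of it. The second lay inside Kcnab1, a potassium channel subunit gene, at chr3:65355372-65355944 (30.7 and 33.5). The third lay 282074 bp from the nearest gene, Pik3r1, a regulatory subunit of phosphoinositide 3-kinase, at chr13:102050291-102050884 (26.2 and 30.9). The H3K27ac peaks they overlapped had widths of up to 687, 732 and 576 bp, beside a median of 637 bp over all H3K27ac peaks.

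The other 7 of the 10 strongest had fold enrichments of 19.1 to 35.5. They lay inside Nek7, a kinase gene (28.0 and 35.5), Sparcl1, which encodes a matrix protein (34.8 and 26.99), and Foxp1, a forkhead transcription factor gene (21.7 and 23.1). The rest lay near Dhx8, an RNA helicase gene (26.0 and 19.1), Mrfap1 (30.5 and 30.8), Slc25a33, a mitochondrial carrier gene (25.4 and 20.6), and Spin1, a histone reader gene (28.4 and 24.5). None of the 10 had a peak in a 0 h list, which the rule required. At 8 of the 10 the summit lay inside H3K27ac. At Sparcl1 and Slc25a33 it lay outside, and at Slc25a33 the mark reached only 1.29% of the locus.

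The H3K27ac peaks that held these loci were narrower than those that held distal loci in all 4 libraries. Of 975 H3K27ac peaks with an acetylated 6 h-only locus, 434 (44.5%, 95% Wilson interval 41.4 to 47.6) were wider than 1 kb. Of 1172 with a distal locus in all 4 libraries, 877 (74.8%, 72.3 to 77.2) were. The difference was −30.3 percentage points. Median widths were 862 bp and 1649 bp, beside 637 bp over all H3K27ac peaks. A wide peak touches more loci of any kind, and the loci in all 4 libraries were themselves wider, as given above.

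Counted from the side of the mark, 936 of 25146 distal H3K27ac peaks (3.72%) held an acetylated 6 h-only locus. The share was 2.42% of peaks up to 500 bp, 3.99% of those of 500 to 1000 bp, 5.29% of those of 1000 to 2000 bp and 6.33% of wider ones. For distal loci in all 4 libraries the same shares were 0.763%, 3.11%, 8.13% and 15.5%. Per megabase of H3K27ac peak the order differed. Peaks with a 6 h-only locus numbered 75.4 per megabase in the narrowest class and 19.9 in the widest, and peaks with a locus in all 4 libraries 23.8 and 48.6. A locus counts once it touches a peak by 1 bp, so its own width adds to the target, which raises the number per megabase in narrow peaks by construction.

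**Figure D3:**
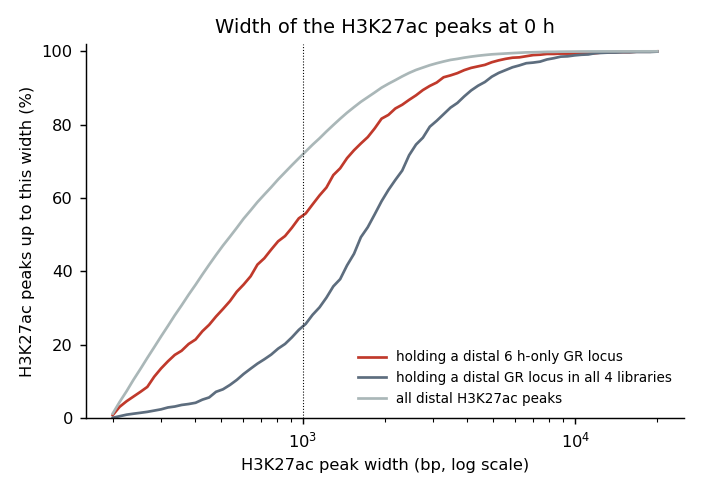
Cumulative percent of H3K27ac peaks (y axis) up to a given width in bp (x axis, log scale) for peaks that held a distal 6 h-only GR locus (red), peaks that held a distal GR locus called in all 4 libraries (dark grey) and all distal H3K27ac peaks (light grey). The dotted line marks 1 kb, above which 44.5% of the red and 74.8% of the dark grey set lay, and the red curve runs between the other two.

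The summit lay inside an H3K27ac peak at 727 of the 924 loci (78.7%, 75.9 to 81.2) and at 1047 of the 1127 acetylated distal loci in all 4 libraries (92.9%, 91.3 to 94.3), a difference of −14.2 points. With only loci covered by at least 50%, the shares were 92.5% and 96.3%, a difference of −3.80 points. Where the summit lay outside, it was a median of 78 bp from the H3K27ac edge, and at 76 of the 197 such loci (38.6%) an H3K27ac peak stood on both sides within 1 kb. Where it lay inside, it was a median of 378 bp from the nearer edge, against 704 bp for loci in all 4 libraries. Of the 924 loci, 100 (10.8%) shared their H3K27ac peak with a 0 h GR peak. Over all 25146 distal H3K27ac peaks 12.7% held a 0 h GR peak, and the rule itself had removed loci with one. Fold enrichment was a little higher at loci that touched only narrow H3K27ac peaks. Medians were 9.50 and 8.53 at the 218 loci whose widest H3K27ac peak measured up to 500 bp. At the 199 loci in peaks over 2 kb they were 8.27 and 7.29. The summit lay inside H3K27ac at 41.3% of the 218 loci and at 96.5% of the 199, so many of the former were bound beside the mark.

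Inside genes lay 550 of the 924 loci (59.5%, 56.3 to 62.6), 932 of 1623 distal 6 h-only loci outside the mark (57.4%, 55.0 to 59.8) and 775 of 1172 distal loci in all 4 libraries (66.1%, 63.4 to 68.8). The first 2 shares were not told apart (difference 2.10 points, two-sided Fisher's exact test, p = 0.316 after Benjamini-Hochberg adjustment for 6 comparisons of shares). Loci are not replicates of a condition, so such tests describe the lists at hand. Without the first 6 h library the order turned, with 61.4% and 65.2% (Fisher's exact adjusted p = 0.0224). The difference of −6.60 points from loci in all 4 libraries passed (Fisher's exact adjusted p = 0.00289), but not in every setting. By Fisher's exact test it was −2.14 points (adjusted p = 0.379) with distal set at 2.5 kb, −1.68 points (adjusted p = 0.317) without the second 6 h library, and 4.62 points, 58.9% against 54.3% (adjusted p = 0.114), once loci within 1 kb of any annotated start were also left out. That last setting also dropped loci on chromosomes without starts in the RefSeq table.

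Acetylated 6 h-only loci lay nearer to binding that was present at both times. A GR locus called in all 4 libraries stood within 10 kb of 187 of them (20.2%, 17.8 to 22.9) and of 173 of the 1623 distal 6 h-only loci outside the mark (10.7%, 9.25 to 12.3). The difference was 9.58 points (Fisher's exact adjusted p = 1.14e-10). Within 50 kb the shares were 48.9% and 37.0%. The mark itself set these groups apart, and 96.2% of distal loci in all 4 libraries overlapped it. The rule may thus bring part of the difference with it. The loci outside the mark also lay farther from genes, as given above. The parts of the mark and of that distance were not tested. Another 6 h-only locus stood within 10 kb of 26.7% of the acetylated loci and 24.0% of the others (difference 2.70 points, Fisher's exact adjusted p = 0.168). Without the first 6 h library these shares were 33.4% and 38.7% (Fisher's exact adjusted p = 0.00292), and without the second 33.9% and 35.9% (adjusted p = 0.240). Chained at 10 kb, the 924 loci formed 759 single loci, 62 pairs, 9 runs of 3, 2 of 4 and 1 of 6.

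The 200 loci called in all 4 libraries within 10 kb of an acetylated 6 h-only locus were not chosen by their own strength. They were chosen by nearness to loci called only at 6 h, so the rule may bring part of a rise at 6 h with it. That part was not tested. Ranked by fold enrichment among all 5012 loci called in all 4 libraries, the 200 loci had median percentiles of 65.0 and 64.6 in the 6 h libraries. In the 0 h libraries their median percentiles were 45.2 and 51.1. Both 6 h values lay above both 0 h values. The means were 64.8 ± 0.23 and 48.1 ± 4.22 (SD, n = 2 each), a difference of 16.7 percentile points (exact permutation test over libraries, two-sided p = 0.33, the smallest that 2 against 2 libraries allow). Of the 200 loci, 87 (43.5%) ranked higher in both 6 h than in both 0 h libraries and 23 (11.5%) lower. Over all 5012 loci 19.2% ranked higher and 22.1% lower in this way. With 4 libraries this order cannot reach a p under 0.05, and nearby loci are not independent of each other.

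The neighbours of distal 6 h-only loci outside H3K27ac moved the same way. Their median percentiles were 60.1 and 65.6 at 6 h and 47.7 and 54.9 at 0 h, a difference of 11.6 points (194 loci, exact permutation p = 0.33). The sets of neighbours shared 19 loci, and the difference between them was not tested. Among neighbours that were themselves distal, 55 of 101 (54.5%) ranked higher in both 6 h libraries, against 297 of 1071 (27.7%) of distal loci in all 4 libraries with no acetylated 6 h-only locus within 10 kb. Leaving out neighbours closer than 1 kb gave a difference of 15.4 points, and ranking distal loci among themselves 18.1 points.

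**Figure D4:**
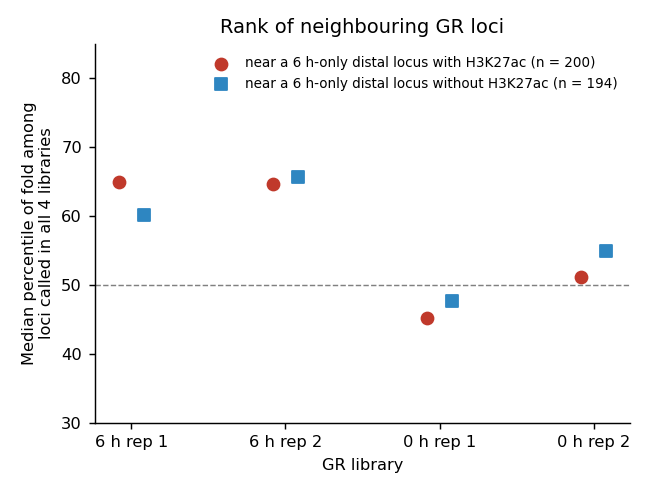
Median percentile of fold enrichment (y axis, among the 5012 GR loci called in all 4 libraries) of those within 10 kb of a distal 6 h-only locus with H3K27ac (red circles, n = 200) or without it (blue squares, n = 194), in each GR library (x axis). For both sets the 6 h libraries lie at 60.1 to 65.6 and the 0 h libraries at 45.2 to 54.9, and the dashed line marks the median of all loci.

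Of 21631 protein-coding genes, 1330 (6.15%) had an acetylated 6 h-only locus inside the gene or within 50 kb of it. This share rose with the number of H3K27ac peaks in the same window, which the rule brings with it. It was 2.90% of genes with 1 to 4 such peaks, 10% with 5 to 9, 18.2% with 10 to 19 and 38.1% with 20 or more. Lists of genes were chosen for ovarian and glucocorticoid biology with earlier results of these data known, and 44 of their 264 genes (16.7%) had such a locus. The lists are described by their counts, with no test, and nearby genes can share a locus. As a check of the tissue, the 8 granulosa markers had a median of 15 H3K27ac peaks in their windows, against 4 for the 6 theca, 2 for the 7 oocyte, 5 for the 6 leukocyte and 1.5 for the 6 endothelial markers, and 3 over all genes. A GR locus called in all 4 libraries lay in the windows of all 8 granulosa markers, of 13 of 15 housekeeping genes (86.7%) and of 46.0% of all protein-coding genes (9950 of 21631). A distal 6 h-only locus outside H3K27ac lay in the windows of 9.55% of all protein-coding genes (2065 of 21631).

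Genes of luteinisation and steroid synthesis had an acetylated 6 h-only locus in 7 of 20 cases (35.0%), and a distal 6 h-only locus outside H3K27ac in 4. Over all protein-coding genes the shares were 6.15% and 9.55%. The windows of the list held a median of 8.5 H3K27ac peaks. Cyp11a1, which cleaves the side chain of cholesterol as the first step of steroid synthesis, had 3 loci. They lay inside the gene at chr9:58012485-58012847 (fold enrichments 7.15 and 5.57 in the 6 h libraries) and chr9:58023181-58023494 (8.65 and 6.10), and 9002 bp outside it, in Ccdc33, at chr9:58036033-58036655 (12.5 and 15.1). The outer one was the strongest in both libraries, and H3K27ac covered all 3 wholly.

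Fdxr, the ferredoxin reductase that passes electrons to that enzyme, also had 3 loci, 1 inside the gene at chr11:115272912-115273491 (9.10 and 8.98) and 2 in the neighbour Fads6 (9.20 and 4.39, and 10.3 and 8.69). Lhcgr, the LH receptor gene, had 1 inside the gene at chr17:88756403-88757084 (12.3 and 9.74), wholly covered by an H3K27ac peak of 4844 bp, with no distal 6 h-only locus outside the mark and no locus in all 4 libraries in its window. Nr5a2, a nuclear receptor needed for luteinisation in mice, had 1 at chr1:136945996-136946412 (7.05 and 5.74). It was also 1 of 8 granulosa markers, the only one with such a locus. Its H3K27ac peak of 19412 bp was the widest that held any of the 924 loci, and 15 GR loci of all call patterns lay in it. The other genes of the list with such a locus, named after their counts were seen, were Scarb1, the receptor for high-density lipoprotein, Por, which donates electrons to cytochrome P450 enzymes, and Prlr, the prolactin receptor gene, with 3.

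In the list of the ovulatory response to LH, 10 of 28 genes (35.7%) had an acetylated 6 h-only locus, and 10 had a distal one outside H3K27ac. Of all protein-coding genes, 6.15% and 9.55% had one. The median number of H3K27ac peaks in the windows was 3.5, near the 3 of all genes. Rgs2, a regulator of G protein signalling, had 2, one inside the gene at chr1:144000905-144001866 (7.30 and 7.11) and one 2287 bp outside at chr1:144006436-144006833 (10.5 and 5.43), both wholly covered. Runx1, a transcription factor of the ovulatory response, had 2 inside the gene, at chr16:92634826-92635252 (9.56 and 9.94) and chr16:92690576-92691228 (10.8 and 8.004). Its relative Runx2 had 2 where it overlaps Supt3, at chr17:44797313-44797807 (7.13 and 6.39) and chr17:44811490-44812276 (8.54 and 9.64), the second only 15.9% covered. Tnfaip6, which stabilises the cumulus matrix, had 1 inside the gene at chr2:52053634-52053939 (7.87 and 8.94), in an H3K27ac peak of 563 bp, beside 4 distal 6 h-only loci outside the mark.

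The rest of that list with an acetylated 6 h-only locus, also named after their counts were seen, were Ereg, an epidermal growth factor-like ligand, the proteases Adamts1 and Adamts4, the transcription factor Cebpb, Zfp36, which promotes mRNA decay, and Vcan, the matrix proteoglycan versican. Vcan had 2, beside 9 outside the mark. Pgr and Ptgs2, the progesterone receptor and the inducible prostaglandin synthase, had none.

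In the list of glucocorticoid-responsive genes, 5 of 25 (20%) had an acetylated 6 h-only locus, against 6.15% of all protein-coding genes. A distal one outside the mark lay in the windows of 10 and a locus in all 4 libraries in those of 18. Of all protein-coding genes, 9.55% and 46.0% had these. Tsc22d3, whose product GILZ mediates anti-inflammatory effects of glucocorticoids, had 3, and they were among the stronger of the list. The nearest lay 1471 bp from the gene at chrX:140537689-140538057 (16.9 and 20.2), with its summit outside the mark, the next at chrX:140520185-140520787 (13.2 and 10.1) and the third at chrX:140511174-140511627 (8.75 and 13.8). The metallothionein genes Mt1 and Mt2 shared 1 locus, at chr8:94162518-94162802 (6.59 and 6.15). Rgs2, given above, is also on this list. Fkbp5, a co-chaperone that restrains GR and the fifth gene of the list with a locus, had 1 that lay 26610 bp from the gene, near Armc12, at chr17:28512759-28513322 (7.75 and 9.57). Per1 and Zbtb16, both known to respond to glucocorticoids, had none, but they had 6 and 4 loci in all 4 libraries.

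GR and its cofactors had 3 of 16 genes with such a locus, and the GR gene itself, Nr3c1, had none. H6pd, which feeds the enzyme that regenerates active glucocorticoid, had 3 in its window, all inside its neighbour Spsb1 (5.96 to 6.60 in the first and 5.03 to 6.30 in the second 6 h library). Ncoa1, a coactivator of nuclear receptors, had 1 at 48293 bp (6.06 and 5.27), which touched H3K27ac over 23.8% of its width. Insulin, IGF and metabolic signalling had 4 of 20 genes. Igf1r, the receptor for IGF1, had 1 inside the gene (6.95 and 8.004), Irs1, an adaptor of that receptor, 1 inside the gene (8.97 and 7.54), Cpt1a, which brings fatty acids into mitochondria, 1 inside the gene (4.53 and 5.03), and Pfkfb3, an activator of glycolysis, 1 at 41569 bp (7.51 and 6.45). In the first 6 h library the loci of H6pd, Ncoa1, Igf1r and Cpt1a lay under the first quartile of the 924 loci (7.15). In the second library that of Igf1r lay above the median of 7.94. The locus of Irs1 lay above the median of 8.89 in the first library and below that of the second. For Fkbp5 it was the other way round.

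Lists with smaller shares included matrix and vessels, with 1 of 24 genes (4.17%), and inflammation and prostaglandins, with 1 of 22 (4.55%). Their genes had distal 6 h-only loci outside H3K27ac in 8 cases each (33.3% and 36.4%), against 9.55% of all protein-coding genes. The windows of these lists held medians of 2 and 3 H3K27ac peaks. The single genes were Plau, the urokinase gene, with a locus at 30710 bp (7.98 and 6.88), and Il1r1, an interleukin receptor gene, with one inside the gene (6.06 and 8.52). Among genes of AP-1 and other early transcription factors 2 of 22 had an acetylated 6 h-only locus. A locus in all 4 libraries lay in the windows of 20 of the 22, against 46.0% of all protein-coding genes. Junb, an AP-1 subunit, had 2, at chr8:84966579-84966913 (14.5 and 14.6) and chr8:84959927-84960157 (7.75 and 8.38), the second touching the mark over 4.33% of its width. Nr4a1, an orphan nuclear receptor, had 1 at 45790 bp (15.7 and 16.2).

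The preovulatory FSH response had 2 of 22 genes, Bmpr1b, a bone morphogenetic protein receptor (2 loci, 7.14 and 5.36, and 9.73 and 12.5), and Igf1r. A locus in all 4 libraries lay in the windows of 17 of the 22, against 46.0% of all protein-coding genes. The circadian clock had 2 of 19, the repressor Cry2 (10.2 and 7.28) and the activator Tef (8.40 and 7.03). The cell cycle had 2 of 20, the inhibitor Cdkn1b (5.50 and 6.23) and the checkpoint kinase Bub1 (8.76 and 7.07). Housekeeping genes had 4 of 15 (26.7%), a share above that of most lists, with Hprt at 19.1 and 21.0, Gapdh at 14.7 and 12.3, Gusb at 6.56 and 10.9 and Actb at 9.36 and 4.69. Their windows held a median of 8 H3K27ac peaks. Markers of other cell types had 2 of 6 for leukocytes (Itgam, at 6.51 and 6.89, and Fcer1g, at 17.3 and 7.54), 1 of 6 for endothelial cells (Cdh5, at 5.77 and 4.63), 1 of 7 for the oocyte (Zp3, at 10.3 and 8.12) and 0 of 6 for theca. A locus in a window need not act on that gene, and the part of other cell types was not tested.

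Leaving out the second 6 h library raised the genes of all lists with such a locus to 71 of 264. Over all 21631 protein-coding genes the number rose as well, from 1330 to 2630. Without that library the AP-1 list had 9 of 22, the FSH list 5, the glucocorticoid list 8, GR and its cofactors 5 and housekeeping 7. The cell cycle had 4, theca 2, and granulosa markers and matrix and vessels 2 each. Without the first 6 h library the clock had 5 of 19 and the glucocorticoid list 8. Without the first 0 h library the FSH list and the cell cycle had 4 each and granulosa markers 2, and without the second granulosa markers also had 2. Endothelial markers had 0 without the first 6 h library. Over all protein-coding genes the number was 1679 without the first 6 h library. It was 1537 without the first and 1573 without the second 0 h library. With each locus given only to the gene it overlapped or the nearest one, the counts were 7 for luteinisation, 7 for the ovulatory list, 3 for the glucocorticoid list, 0 for GR and its cofactors, the cell cycle, oocyte and endothelial markers, 1 for housekeeping and 1 for leukocytes, and 2 each for inflammation and for matrix and vessels. The share of all genes under this assignment is not given here.

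**Figure D5:**
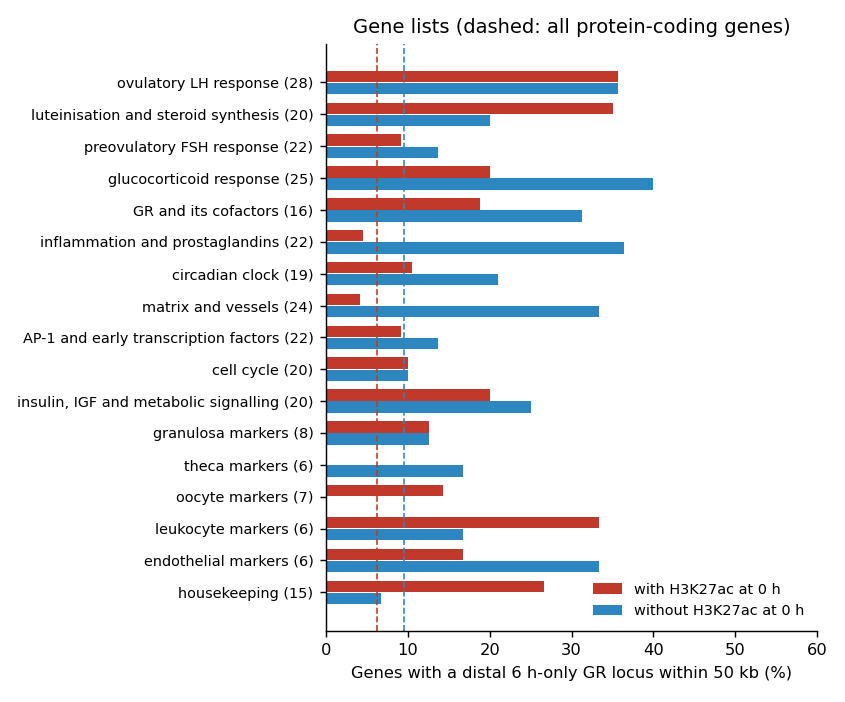
Percent of the genes of each list (number of genes in brackets) with a distal 6 h-only GR locus within 50 kb (x axis), for loci with H3K27ac at 0 h (red) and without it (blue), with dashed lines at the shares of all protein-coding genes (6.15% and 9.55%). Red bars stand at 35.7% for the ovulatory LH response and 35.0% for luteinisation, and at 4.17% for matrix and vessels, where the blue bar stands at 33.3%.

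Some genes had many of the loci. Crispld2, which encodes a secreted protein and is known as a glucocorticoid-responsive gene from human airway muscle cells, had 7 within 50 kb, 6 of them inside the gene, with no distal 6 h-only locus outside the mark and no locus in all 4 libraries. Their fold enrichments ran from 6.83 to 15.3 in the first and from 4.82 to 13.2 in the second 6 h library, highest at chr8:120002290-120002897. Of these, 3 shared 1 H3K27ac peak of 5459 bp, in which no locus in all 4 libraries lay. Sox5, a transcription factor gene of 953.9 kb, had 7 inside the gene over chr6:144648186-144754558, with fold enrichments of 4.63 to 21.9 and 7.08 to 18.2. Its window also held 2 distal 6 h-only loci outside the mark and 2 loci in all 4 libraries.

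A run of 6 loci lay inside Ephx2, the soluble epoxide hydrolase gene, over chr14:66085683-66110926, and counted also for its neighbours Adam2 and Chrna2. These loci were 1053 to 6180 bp wide, against a median of 419 bp, and made up 6 of the 17 loci wider than 1 kb. Their fold enrichments were alike, 7.35 to 11.1 and 6.53 to 9.12. The cause of the broad signal was not tested. The window of Ephx2 also held 4 distal 6 h-only loci outside the mark and 3 loci in all 4 libraries. Spsb1, an adaptor of ubiquitin ligases, had 6 loci, 3 of them in 1 H3K27ac peak of 11906 bp (5.96, 6.60 and 6.56 in the first library and 6.23, 6.30 and 5.03 in the second) and the strongest 46672 bp outside the gene (13.1 and 22.1). In its window lay a further 2 distal 6 h-only loci outside the mark and 3 loci in all 4 libraries. The genes with 5 each were Capzb, an actin capping subunit (8.34 to 18.2 and 8.38 to 15.9), Msi2, an RNA-binding protein (5.38 to 12.4 and 5.62 to 8.53), Rab31, a vesicle GTPase (7.55 to 14.2 and 8.35 to 13.6), Tacc2, a centrosomal protein (3.75 to 16.2 and 4.11 to 15.5), and Vcpkmt, a methyltransferase (8.03 to 13.3 and 4.22 to 13.2). Their windows held 0 to 3 distal 6 h-only loci outside the mark and 1 to 3 loci in all 4 libraries.

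Most H3K27ac peaks with such a locus held 1 of them (943), while 27 held 2 and 5 held 3. After that of Nr5a2, the widest lay in Msi2 (16263 bp, 2 loci, at 6.34 and 5.89 and at 12.4 and 6.99) and in Sulf2, a gene of heparan sulfate remodelling (13852 bp). The Sulf2 peak held 3 acetylated 6 h-only loci in a row, at chr2:166151466-166152164 (10.6 and 9.62), chr2:166153196-166153829 (13.9 and 12.5) and chr2:166153949-166154499 (10.9 and 6.81). None of the loci in it was called in all 4 libraries.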

How the data were processed

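GR and H3K27ac ChIP-seq peak lists of 5 libraries were used. Reads were aligned with Bowtie2 2.4.5 to mm10 and peaks called with MACS2 (version not given), per the submitters' processing notes. The authors deposited 1 list per library. Each GR peak has a score (10 times the −log10 p-value), a fold enrichment ratio, −log10 p- and q-values and a summit, all in the authors' deposited units, and the lowest −log10 p-value was about 9 in each list. Fold enrichment is the authors' own and describes or ranks peaks within a list. The H3K27ac list gives positions only. Depth is unknown, so a missing peak means only that the limit was not passed.

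Loci, distances, H3K27ac overlap and gene windows were computed from these lists and the RefSeq gene table of GRCm38.p6 with Python 3.11.15, numpy 2.4.6, pandas 2.3.3 and scipy 1.17.1, and the steps were tested on simulated lists, where all 900 planted loci were recovered. Shares were compared with two-sided Fisher's exact tests and libraries with exact permutation tests. Intervals are 95% Wilson intervals and cover counting error only. Genes were named by a fixed rule: the 10 strongest loci, up to 4 genes per list nearest to a locus, the genes with most loci, loci next to each limit, and the widest and fullest H3K27ac peaks. The loci and gene lists were chosen with earlier results of these data known. Alternatives covered merging, H3K27ac overlap, list length, distance limits and leaving out each library. Whole-locus motif searches were not made, as no genome was used. One locus next to a limit is not reported here.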

Additional observations from a re-analysis of the deposited data

How the results depend on the processing

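With each GR library left out in turn, the acetylated 6 h-only loci numbered 1062 to 1819, with the highest value without the second 6 h library. The list genes near one numbered 49 to 71 of 264, and all protein-coding genes near one 1537 to 2630. Under merging across 500 bp, merging on 100 bp of overlap, 50% coverage by H3K27ac, the summit inside it, the stronger 50% of each list, equal list length, a distal limit of 2.5 kb and exclusion of all annotated starts (this last chosen after seeing the data) the loci numbered 645 to 929. The exclusion of annotated starts also dropped loci on chromosomes without starts in the RefSeq table. The share differences for a locus in all 4 libraries nearby, for the summit inside H3K27ac and for wide H3K27ac peaks kept their direction under every alternative that could be run, and the first passed its test under each. The mark that the rule uses sets the groups of the first apart under every setting. The rule may thus bring part of that difference with it each time, and passing does not remove this limit. Under the summit setting the summit comparison is fixed by its construction and was not run. The share inside genes against distal loci in all 4 libraries differed by −2.14 points at the 2.5 kb limit and 4.62 points without loci near any annotated start, and by −6.90 to −1.68 points with a library left out. Against 6 h-only loci outside H3K27ac it differed by −3.83 to 2.62 points with a library left out, and the share with another 6 h-only locus nearby by −5.23 to 2.72 points. The cause was not tested. The mean log2 ratio of strength was 0.019 with −log10 p-values in place of fold enrichment. The rank difference of neighbours was 13.7 to 19.7 percentile points with a library left out. In the replicate block, which pairs libraries of the same number, it was 16.7 points with an exact permutation p of 0.5, the smallest that 2 pairs allow. Same-numbered libraries share only a number. The planned comparison of motifs over whole loci was not run. Depth is not given, so absence from a 0 h list cannot be told apart from a shallower library.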
